A study of Drosophila melanogaster with 8 samples.

Results

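Non-LTR retrotransposon insertions were examined in total RNA of fly testes: 971 of the 5416 transposon insertions, and of the 22887 features of every kind, that the count table holds. A feature was a member when its symbol carries the insertion mark {} after a name from a set of 37 non-LTR family names. No measured value enters this rule, but the set was chosen with earlier results of these data known. Features were found for 31 of these names; R2-element, TAHRE and the name forms F-element, I-element, X-element and R1A1-element had none and were not analysed here. The libraries come from Drosophila melanogaster testes dissected at 5 days of age, 2 libraries from independent dissections for each of the Tailor mutant, the Dis3L2 mutant, the Tailor/Dis3L2 double mutant and w1118, the strain given as wild type. Each library was made from 650 ng of total RNA with 8 cycles of PCR and read as pairs of 50 nt. The alleles, the strains in which the mutations were kept and the number of flies per dissection were not given in the sources used here. A difference in which insertions a strain carries and a change in the RNA of an insertion present in every strain therefore cannot be told apart.

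Non-LTR retrotransposons copy themselves through an RNA that is reverse transcribed directly at the new genomic site, and many copies are truncated at their 5′ end. The Jockey-like families (jockey, Doc, F, G, BS, X, Juan) are dispersed through the genome, HeT-A and the TART families add to chromosome ends in place of telomerase, R1 inserts into ribosomal RNA genes, and the I element is the agent of I-R hybrid dysgenesis. In the germline they are held down by piRNAs, the small RNAs that guide Piwi proteins. Tailor adds uridines to RNA 3′ ends, Dis3L2 is an exonuclease that degrades uridylated RNA from the 3′ end, and the proteins act in one complex. The comparisons ask which of these RNAs differ when either enzyme or both are mutated.

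Total counts were between 9781275 and 30059737 per library. The members took between 0.0634% and 0.119% of them, which is 6204 to 27943 counts per library, and this number limits the precision for single copies. Both targeted genes were low in the mutants named for them: Tailor averaged 19.7 ± 1.10 CPM in Tailor mutants, 21.8 ± 1.23 in double mutants and 84.9 ± 3.12 in w1118, and Dis3L2 (listed as CG16940) averaged 10.3 ± 0.376 CPM in Dis3L2 mutants, 30.6 ± 0.0323 in double mutants and 116 ± 1.08 in w1118 (SD, n = 2 each). CPM are depth-scaled counts, with TMM scaling of library sizes. All 15 germline markers of the testis were detected, with sums of 4361 to 6244 CPM over the libraries. Of these, 1 was called higher and 1 lower in Dis3L2 mutants, and 2 were called higher in double mutants. Tailor mutant replicate 1 and w1118 replicate 2 stood apart by markers of adjoining tissue. The 10 accessory gland markers summed to 39422 and 9398 CPM in Tailor mutants, 3298 and 4360 CPM in Dis3L2 mutants, 13799 and 10367 CPM in double mutants and 12079 and 11374 CPM in w1118. Of the 10, 1 was called lower in Dis3L2 mutants. The 5 midgut markers summed to 0.150 and 30.3, 5.35 and 0.256, 0.288 and 0.619, and 30.5 and 365 CPM in the same group order. Of the 5, 2 were called lower in each of the Dis3L2 and double mutants. CG6295 was at 0 in both Tailor and both Dis3L2 mutant libraries. Sums of other cell markers also differed between the groups. The 5 blood cell markers summed to 111 and 157 CPM in Tailor mutants, 274 and 272 CPM in Dis3L2 mutants, 212 and 149 CPM in double mutants and 134 and 131 CPM in w1118, with 2 of 4 tested called higher in Dis3L2 mutants and 1 in double mutants. The 7 markers of somatic cyst and hub cells summed to 116 and 128, 188 and 184, 151 and 137, and 119 and 118 CPM in the same order, with 1 called higher in Dis3L2 and in double mutants. The 7 fat body markers summed to 205.4 and 248, 96.2 and 93.9, 111 and 103, and 232 and 187 CPM, with 1 called higher in Tailor mutants and 1 called lower in Dis3L2 and in double mutants. Their median log2 change was 0.56 in Tailor, 0.56 in Dis3L2 and 0.37 in double mutants. Most of these markers thus did not follow the lower sums in Dis3L2 and double mutants. The 5 muscle sheath markers summed to 579 and 659, 319 and 311, 362 and 542, and 399 and 377 CPM, with 1 of 4 tested called higher in Tailor mutants. The part of these cells in the results was not tested. Named calls were followed without each single library, the 2 that stood apart among them. With both of these left out, only numbers of calls in Tailor mutants are given.

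Reads from the members came from few copies. Of the 971 insertions, 259 had no count in any library, 318 had 1 to 9 counts in all and 150 had at least 100. Of 146908 member counts, the top 10 insertions held 42.8% and the top 20 held 58.5%, and the jockey family alone held 47.1%. Positions in dm6 coordinates were found for 969: 558 lie in no annotated gene, 361 within introns and 50 overlap an exon. They are found on 2L (160), 2R (259), 3L (220), 3R (102), 4 (64) and X (164), the median length is 863 bp, and 384 are shorter than 500 bp. Whether a read that matches several copies was counted once, several times or not at all was not given in the sources used here, so the family sum was taken as the first measure and values of single copies are less certain.

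Per kilobase of annotated sequence, the highest family level in w1118 was that of TART-C, 7.66 ± 0.554 CPM per kb, but from a single fragment of 989 bp. It was followed by TART-B (3.30 ± 0.000286), jockey (3.28 ± 0.0993) and HeT-A (3.23 ± 0.200), which did not differ from each other beyond their spread (SD, n = 2). The TART-B level rests on 0.985 kb of annotated sequence. TART-B{}5270, which overlaps an exon of nej, held 81.8% of its counts, so reads of that gene can stand in it. The lowest levels were those of Helena (0.0206 ± 0.0178), BS3 (0.0482 ± 0.0210), G7 (0.0511 ± 0.0209) and Cr1a (0.0589 ± 0.00262 CPM per kb). Cr1a has the most annotated copies of any family here, 152, and 115 of them had counts. In double mutant testes jockey was at 1.22 ± 0.233 and HeT-A at 2.36 ± 0.000944 CPM per kb.

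Family sums moved in both directions in each mutant. In Tailor mutants 1 of the 29 families with enough counts to test rose and 2 fell, against 1.15% of all 13605 features tested that rose and 0.772% that fell, 1.92% together. In Dis3L2 mutants 3 rose and 3 fell (4.79% and 4.51% of all features, 9.3% together), and in double mutants 5 rose and 5 fell (6.46% and 4.83%, 11.3% together). G7 and Helena had too few counts for a test. The median log2 change of the 29 families was -0.01 in Tailor mutants, -0.11 in Dis3L2 mutants and 0.00 in double mutants, beside 0.02, 0.00 and -0.06 for all features. For the 87 other transposon families the counts higher and lower were 1 and 0, 7 and 7, and 6 and 10. Calls were made with edgeR's quasi-likelihood test at a Benjamini-Hochberg adjusted p of 0.05 or less over all features. The 3 comparisons share the w1118 libraries. In testis as a whole, fewer cells of a type and less RNA per cell cannot be told apart.

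**Figure D1:**
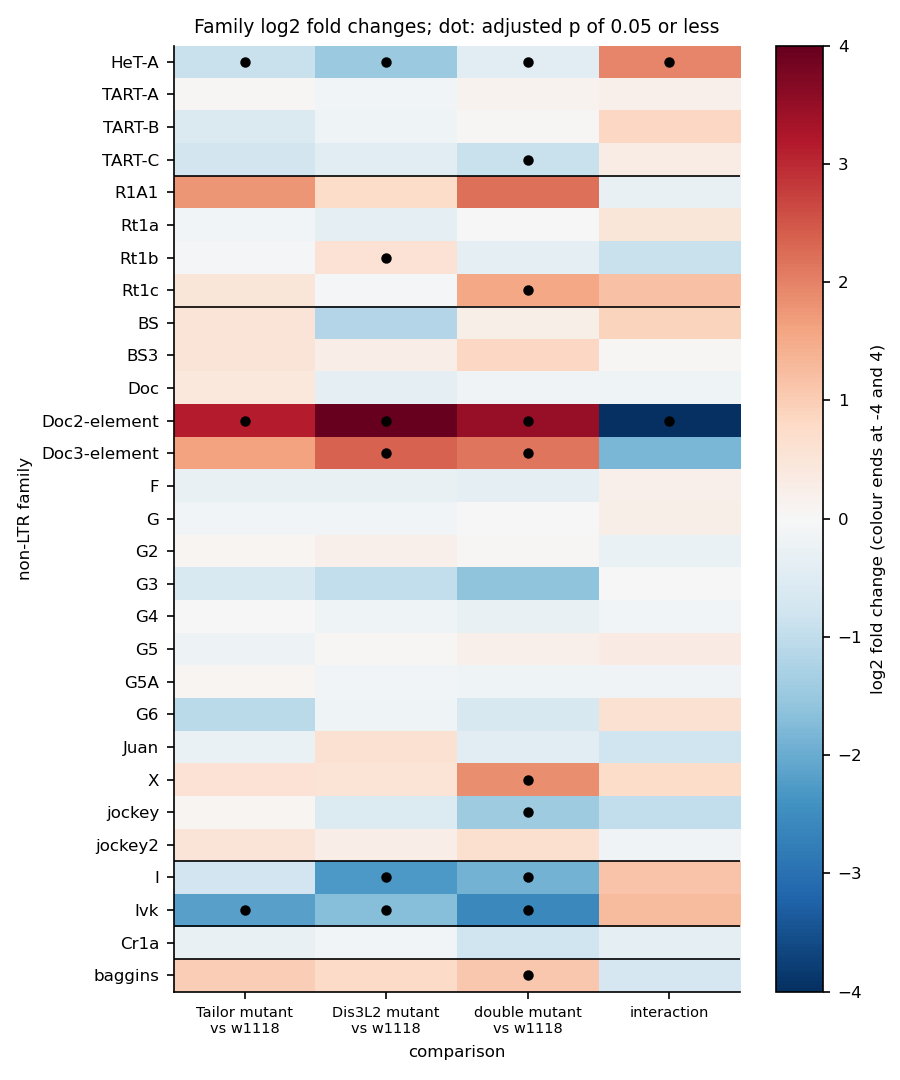
Log2 fold changes of the 29 tested non-LTR families (rows, ordered by clade with lines between clades) in 4 comparisons (columns); colour gives the log2 fold change, ends at -4 and 4, and a dot marks an adjusted p of 0.05 or less. HeT-A and Doc2-element carry a dot in all 4 columns, and most other families none.

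These counts rest on few libraries. The number of families called in Tailor mutants was 3 in all, 1 without w1118 replicate 1 or 2 and 5 without Tailor mutant replicate 2. In Dis3L2 mutants it was 6. This fell to 3 when Dis3L2 mutant replicate 1 was left out, to 2 for its replicate 2 and for either w1118 library, and to 4 for either double mutant library. In double mutants it was 10. This fell to 2 when double mutant replicate 1 was left out, to 3 for its replicate 2, to 1 for w1118 replicate 1 and to 2 for w1118 replicate 2. With 1 library left in a group, that library is taken to vary like the other groups.

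HeT-A, the main telomeric element, fell in all 3 mutants, most in Dis3L2 mutants. Its family sum was 112 and 108 CPM in Tailor mutants, 77.2 and 69.0 CPM in Dis3L2 mutants, 149.8 and 149.8 CPM in double mutants and 196 and 214 CPM in w1118. Every mutant library lay below both w1118 libraries, and the single mutants lay below the double mutant. The log2 fold change by edgeR was -0.90 ± 0.11 in Tailor mutants (SE, adjusted p = 0.0125), -1.49 ± 0.11 in Dis3L2 mutants (adjusted p = 0.000894) and -0.46 ± 0.11 in double mutants (adjusted p = 0.0423). The interaction, which is how far double mutants departed from the summed log2 changes of both single mutants, was 1.94 ± 0.16 (edgeR, adjusted p = 0.00261). The calls in Dis3L2 mutants and of the interaction were kept without any single library. The call in Tailor mutants was lost without w1118 replicate 1 or 2 (adjusted p = 0.0887 and 0.157) and in a fit of those 4 libraries alone (0.135). The call in double mutants was lost without either Dis3L2 mutant, double mutant or w1118 library (adjusted p from 0.0566 to 0.273), with relative log expression scaling (0.0546) and with no filter on low counts (0.0648).

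The TART families, which code for the reverse transcriptase that HeT-A lacks, did not move with HeT-A in every mutant. TART-C had 4.15 and 4.96 CPM in Tailor mutants, 5.01 and 6.15 CPM in Dis3L2 mutants, 4.51 and 3.61 CPM in double mutants and 7.97 and 7.19 CPM in w1118. All mutant libraries were below w1118, and only the double mutant passed the edgeR test (-0.88 ± 0.23, adjusted p = 0.0480). That call was lost without either Dis3L2 mutant, double mutant or w1118 library (adjusted p from 0.0744 to 0.259), with no filter (0.0547) and with DESeq2 (0.0766). TART-A had 5.80 and 7.42 CPM in Tailor mutants, 6.22 and 5.56 CPM in Dis3L2 mutants, 6.72 and 7.43 CPM in double mutants and 6.17 and 6.55 CPM in w1118, with overlapping libraries. TART-B had 1.75 and 2.58 CPM, 4.21 and 1.62 CPM, 2.40 and 4.54 CPM, and 3.25 and 3.25 CPM in the same order. Neither was called in any comparison. The member with most counts of TART-A (TART-A{}5266, X:9678736-9679157) and of TART-B (TART-B{}5270, X:9678154-9678639, 81.8% of the family's counts) are short pieces that overlap an exon of nej, so reads of that gene can stand in these sums. TART-C is the single fragment TART-C{}6275 at the end of chromosome 4 (4:1288110-1289098).

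**Figure D2:**
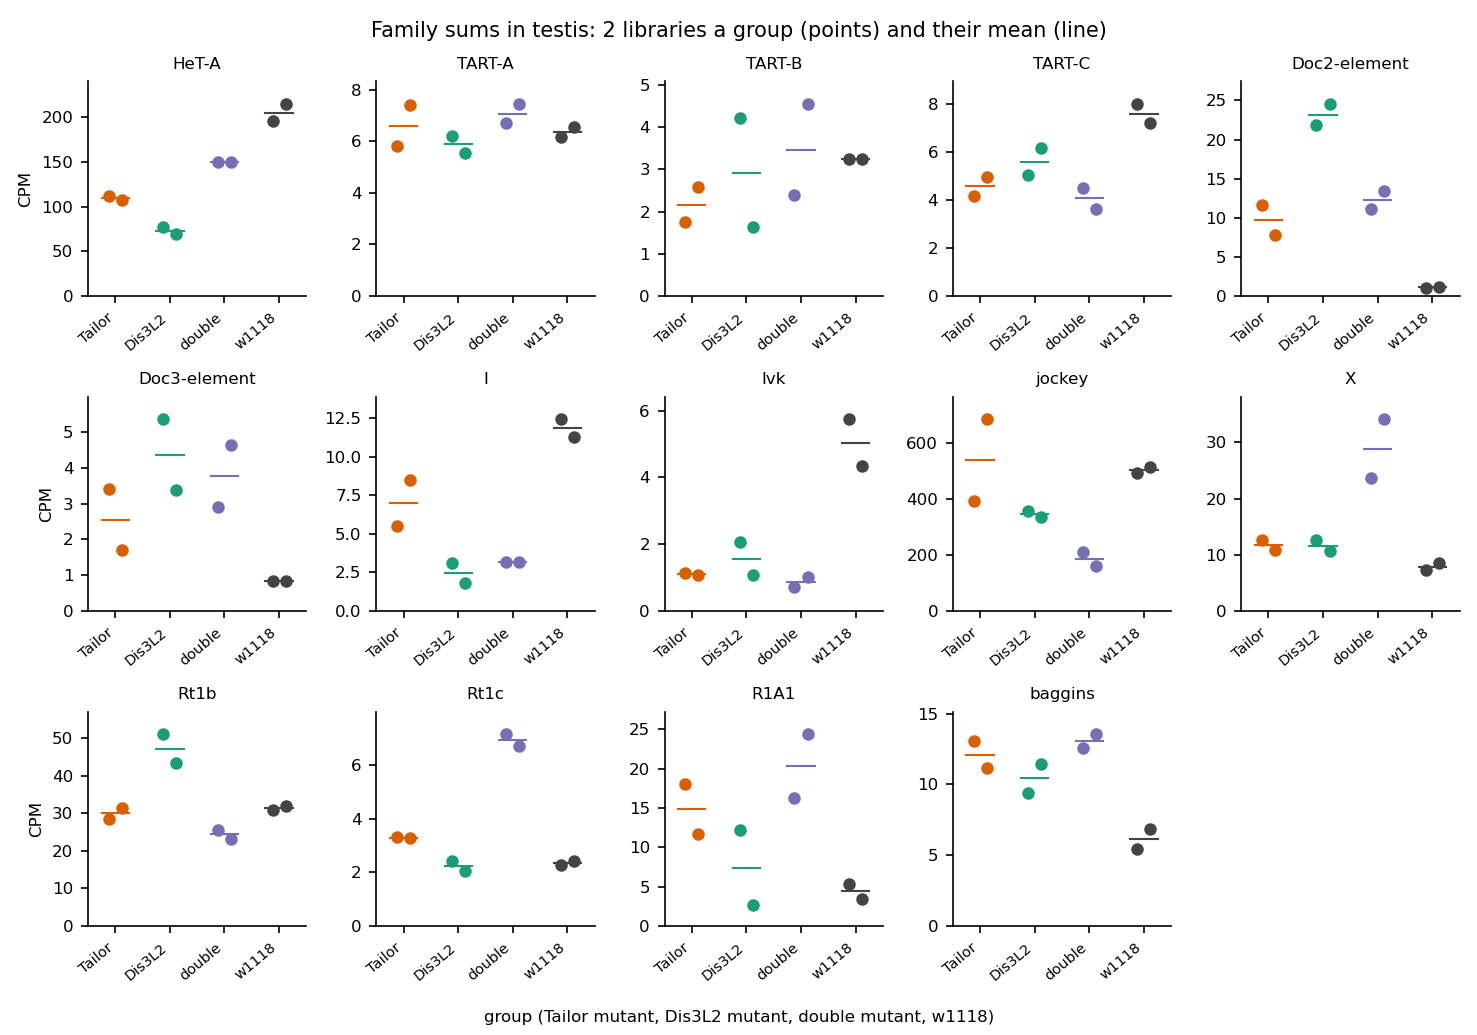
CPM of 14 non-LTR families in each library (points, 2 per group) and group means (lines), for the Tailor, Dis3L2 and double mutants and w1118; each panel has its own axis from 0. HeT-A is highest in w1118 at 196 and 214 CPM, Doc2-element is lowest in w1118, and X is highest in double mutants.

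The HeT-A copies with most counts stand in arrays at the ends of chromosome X and chromosome 4, and they did not all follow the family sum. HeT-A{}4795 (X:109756-114008), which held 32.1% of the family's counts, had 29.3 and 38.1 CPM in Tailor mutants, 19.8 and 17.4 CPM in Dis3L2 mutants, 50.6 and 55.9 CPM in double mutants and 65.1 and 70.2 CPM in w1118. HeT-A{}6262 (4:1314342-1320140) had 11.0 and 9.64 CPM in Tailor mutants, 9.72 and 8.39 CPM in Dis3L2 mutants, 35.3 and 36.5 CPM in double mutants and 24.1 and 26.8 CPM in w1118. It was thus lowest in the single mutants and highest in double mutants, without overlap, where its log2 fold change of 0.50 ± 0.15 did not pass the edgeR test (adjusted p = 0.0789). HeT-A{}6256 (X:107843-109755) was also highest in double mutants, with 10.6 and 9.97 CPM there and 7.18 and 8.82 CPM in w1118 (0.36 ± 0.18, adjusted p = 0.220). Its immediate neighbour HeT-A{}6255 (X:103614-107842) had 1.40 and 1.65 CPM in Tailor mutants, 0.799 and 0.385 CPM in Dis3L2 mutants, 0.899 and 0.935 CPM in double mutants and 6.01 and 6.66 CPM in w1118. HeT-A{}4800 (X:116487-122492) likewise had 1.80 and 1.87 CPM in double mutants and 9.21 and 9.43 CPM in w1118. Copies a few kilobases apart on X therefore differed in the same double mutant libraries. HeT-A{}6255 and HeT-A{}4800 stood far below w1118, while HeT-A{}6256 stood slightly above it without passing the test.

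Of 16 HeT-A copies tested, 4 fell in Tailor mutants (log2 fold changes from -2.05 to -1.004), 7 in Dis3L2 mutants (-3.46 to -1.28) and 4 in double mutants (-2.79 to -0.84), and none rose in these comparisons by the edgeR test. Over all 14246 features of that table, 0.779%, 4.53% and 4.91% fell. HeT-A{}6255 fell by 3.46 ± 0.38 on the log2 scale in Dis3L2 mutants (edgeR, adjusted p = 0.00320), which held without each single library. In double mutants it fell by 2.79 ± 0.37 (adjusted p = 0.00620) and HeT-A{}4800 by 2.35 ± 0.32 (adjusted p = 0.00658); both calls were lost without either double mutant or w1118 library (adjusted p from 0.0537 to 0.0628). The 4 falls in Tailor mutants (HeT-A{}6255, HeT-A{}6262, HeT-A{}6278 and HeT-A{}4795) were lost without w1118 replicate 1 or 2 (adjusted p from 0.0789 to 0.270). Leaving out other single libraries kept the call of HeT-A{}6262. That of HeT-A{}6255 was also lost without Tailor mutant replicate 1 or either double mutant library (0.0581 to 0.0866), that of HeT-A{}6278 without Dis3L2 mutant replicate 1 (0.0506), and that of HeT-A{}4795 without either Dis3L2 or either double mutant library (0.0723 to 0.0848). The 5 copies with a positive interaction past the test were HeT-A{}6262, HeT-A{}6255, HeT-A{}4795, HeT-A{}6278 and HeT-A{}6256, and no other non-LTR copy had one; 1.99% of all features did. Those of HeT-A{}6255 and HeT-A{}6256 were lost without either Dis3L2 mutant, double mutant or w1118 library (edgeR, adjusted p from 0.0590 to 0.191), and the other 3 were kept without each single library.

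**Figure D3:**
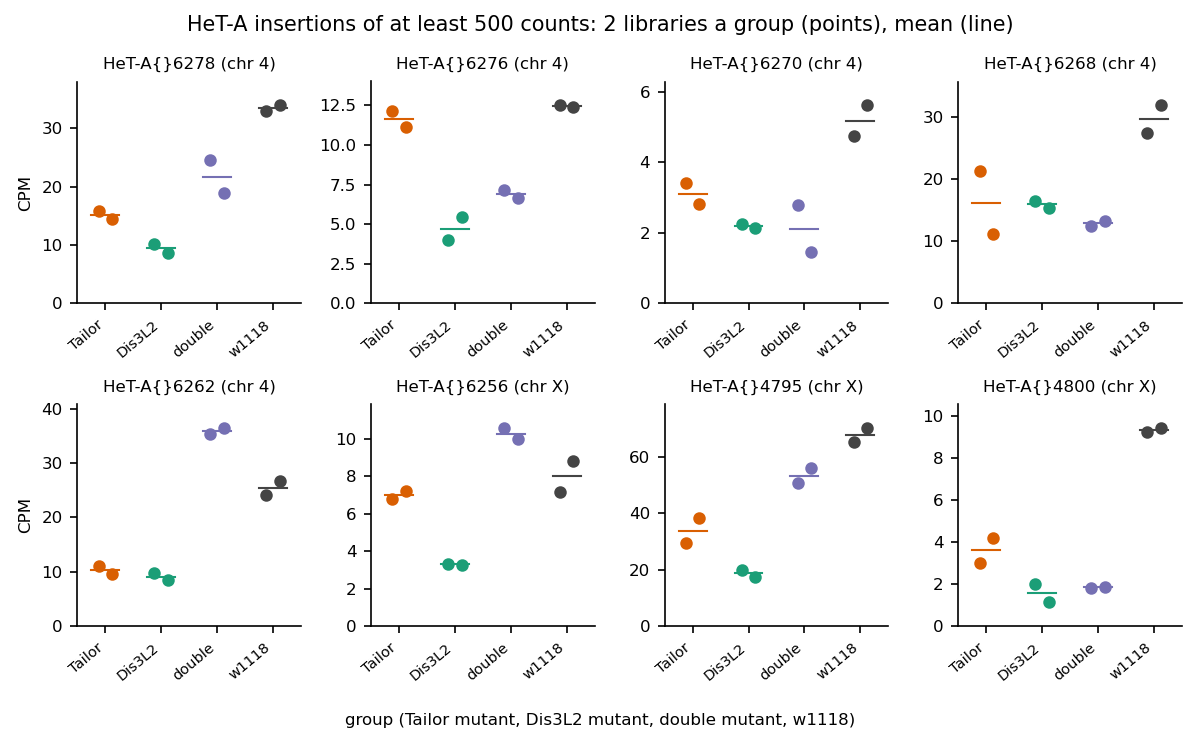
CPM of the 8 HeT-A copies with at least 500 counts, in each library (points, 2 per group) and as group means (lines), each panel with its own axis from 0. HeT-A{}6262 and HeT-A{}6256 are highest in double mutants, and HeT-A{}4800 is near 1.8 CPM there, against 9.21 and 9.43 CPM in w1118.

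The jockey family, an element whose full-length copies are about 5 kb and code for a nucleic acid binding protein and a reverse transcriptase, fell in double mutants. Its sum was 392 and 684 CPM in Tailor mutants, 357 and 336 CPM in Dis3L2 mutants, 212 and 162 CPM in double mutants and 494 and 515 CPM in w1118. The double mutant libraries were the lowest of all 8, and the Tailor mutant libraries stood on either side of w1118. The log2 fold change in double mutants was -1.43 ± 0.26 (edgeR, adjusted p = 0.0182), and those in Tailor mutants (0.09 ± 0.26, adjusted p = 0.913) and the Dis3L2 mutant (-0.54 ± 0.26, adjusted p = 0.252) did not pass. The call was lost without double mutant replicate 1 or 2 (adjusted p = 0.0694 and 0.136) and without w1118 replicate 1 or 2 (0.108 and 0.109).

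The fall in double mutants was spread over the jockey copies. Of 40 tested, 15 fell and 2 rose in double mutants (4.91% and 6.66% of all features), and of the 34 with at least 100 counts 32 had a negative log2 change, with a median of -1.28. The same 34 copies had medians of 0.19 in Tailor mutants and -0.24 in Dis3L2 mutants. The copy with most counts, jockey{}277 (2L:47514-52519, within an intron of Cda5), had 81.5 and 106 CPM in Tailor mutants, 65.9 and 76.4 CPM in Dis3L2 mutants, 29.5 and 32.4 CPM in double mutants and 97.3 and 63.2 CPM in w1118 (double mutant -1.38 ± 0.23, edgeR adjusted p = 0.0135). Next came jockey{}765 on 2R, with 69.1 and 96.7 CPM, 58.6 and 68.1 CPM, 29.3 and 28.9 CPM, and 84.2 and 55.0 CPM in the same order (double mutant -1.26 ± 0.24, adjusted p = 0.0203). Both calls were lost without either double mutant library or w1118 replicate 1 (edgeR, adjusted p from 0.0884 to 0.138). Full-length copies share most of their sequence, so these values may hold the same reads.

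Counts of a single jockey copy were nearly missing from double mutants. For jockey{}981 (3L:11329750-11332879, in no annotated gene), 3130 bp long, levels were 30.8 and 37.8 CPM in Tailor mutants, 7.52 and 22.3 CPM in Dis3L2 mutants, 0.0963 and 0 CPM in double mutants and 17.5 and 19.0 CPM in w1118. The double mutant had 3 counts over both libraries and w1118 had 834, a ratio of 0.00402 (exact 95% interval 0.000827 to 0.0118, counting error only; edgeR adjusted p = 0.00273, kept without each single library). In the other direction jockey{}171 (X:19472185-19472686, between genes near kek5) had no count in w1118 and 37, 14 and 20 counts in the Tailor, Dis3L2 and double mutants. With 3 counts put over w1118 it was at least 12.5-fold higher in Tailor mutants, at least 5.54-fold in Dis3L2 mutants and at least 7.45-fold in double mutants. All 3 calls of jockey{}171 were lost without either w1118 library (edgeR, adjusted p from 0.103 to 0.185) and without either double mutant library (0.0538 to 0.0820). The Tailor mutant call was also lost without Tailor mutant replicate 1 or either Dis3L2 mutant library (0.0505 to 0.0598), and the Dis3L2 mutant call without either of its own libraries (0.109 and 0.0635). The short piece jockey{}288 (2L:1618309-1618557) had no count in the Dis3L2 and double mutants and 24 counts in w1118, which is at least 6.74-fold and 7.16-fold lower. Both calls were lost without either library of the groups compared (edgeR, adjusted p from 0.104 to 0.210), that in Dis3L2 mutants also without double mutant replicate 2 (0.0517) and that in double mutants also without either Dis3L2 mutant library (0.0507 and 0.0518).

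Some full-length jockey copies had many counts in 1 library of a group and few or none in the other. Of 150 members with at least 100 counts, 16 (10.7%) differed by over 4-fold between the 2 libraries of a group (CPM over the total count without TMM scaling, 0.1 added), against 4.75% of 12767 genes and 12.7% of 378 other transposon insertions. In w1118 this held for 6 of the 150 members and 0.728% of the genes. The copy jockey{}817 on 2R had 0.150 and 69.8 CPM in Tailor mutants, 0.266 and 0.385 CPM in Dis3L2 mutants, 19.1 and 26.0 CPM in double mutants and 0.388 and 53.0 CPM in w1118. For jockey{}261 (X:22565059-22570081) the values were 0.150 and 0.362, 0.0666 and 0.0428, 20.9 and 0.104, and 0.291 and 54.7 CPM in the same order. The copy jockey{}1238 (3R:6510081-6515097) had 21.1 and 37.0, 59.7 and 0.342, 18.7 and 0, and 39.8 and 54.6 CPM. The 2 libraries of a group thus differed in which copies their reads were counted on, w1118 included. Full-length copies share most of their sequence, and how reads matching several copies were counted was not given. A difference in RNA and one in read assignment therefore cannot be told apart. With these 16 and the 48 other transposon insertions of that kind left out of the family sums, an alternative added after the data were seen, every family call named here was kept.

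**Figure D4:**
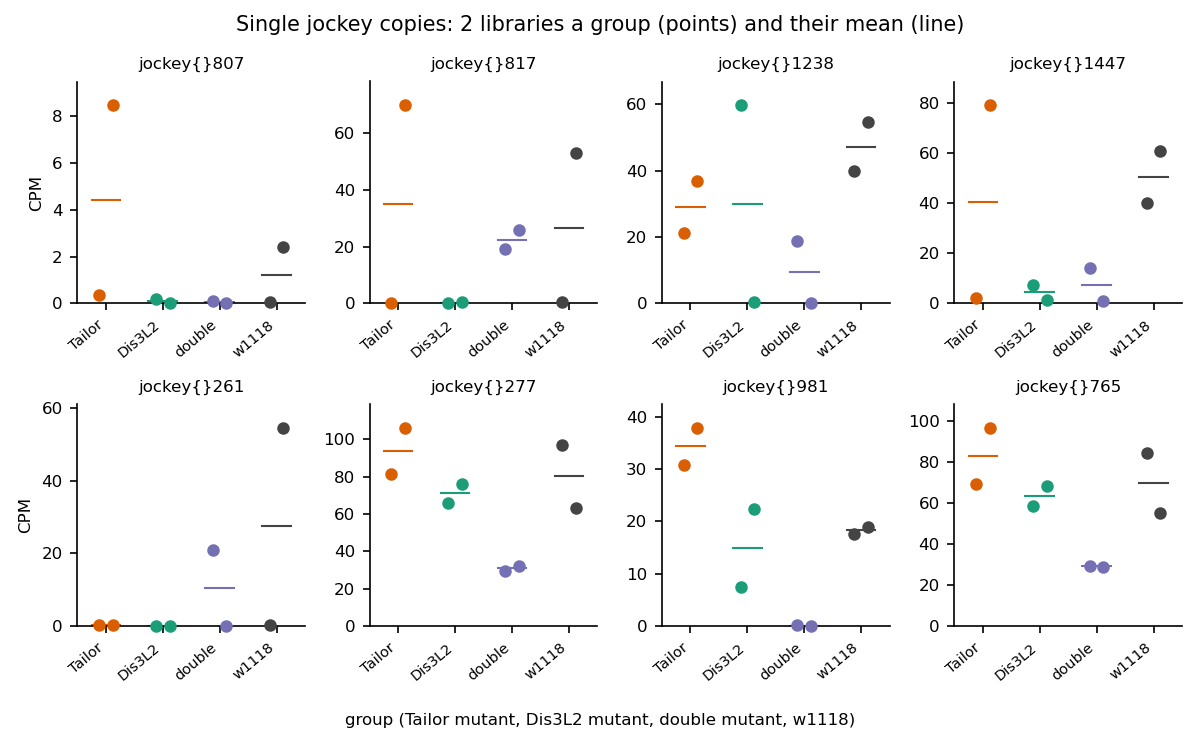
CPM of 8 jockey copies in each library (points, 2 per group) and group means (lines), each panel with its own axis from 0. The first 5 panels are copies whose 2 libraries of a group differ by over 4-fold; jockey{}277 and jockey{}765 are the copies with most counts, near 30 CPM in double mutants; jockey{}981 is near 0 in double mutants.

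X, another Jockey-like family, rose in double mutants. Its sum was 12.6 and 10.9 CPM in Tailor mutants, 12.6 and 10.6 CPM in Dis3L2 mutants, 23.6 and 34.1 CPM in double mutants and 7.34 and 8.48 CPM in w1118. All mutant libraries were above w1118, and the double mutant stood apart (1.86 ± 0.22, edgeR adjusted p = 0.00464); this call was lost only without w1118 replicate 1 (adjusted p = 0.0570). Of 14 X copies tested, 8 rose and none fell in double mutants (6.66% and 4.91% of all features). The 8 had log2 fold changes from 1.33 to 5.71 and lengths from 1241 to 4729 bp. X{}479 (2L:20976717-20981443) had 0.301 and 0.241 CPM in Tailor mutants, 0.732 and 0.342 CPM in Dis3L2 mutants, 2.09 and 3.22 CPM in double mutants and 0.0485 and 0.0401 CPM in w1118. Its 96 counts in double mutants and 2 in w1118 give a ratio of 53.6 (exact 95% interval 14.4 to 449). X{}924 (3L:4451977-4456704) had 0.551 and 0.563, 1.07 and 0.984, 2.21 and 4.36, and 0.145 and 0.0802 CPM in the same order, and X{}996 (3L:14312098-14316826) had 4.46 and 8.21 CPM in double mutants and 0.194 and 0.241 CPM in w1118. X{}345 had 76 counts in double mutants and 3 in w1118, a ratio of 28.3 (9.32 to 140). X{}345, X{}479 and X{}996 lie within introns of Pde1c, CG42238 and fz, on the strand opposite to the gene. Each of these 4 double mutant calls was lost without 1 or both w1118 libraries (edgeR, adjusted p from 0.0529 to 0.0738).

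In Dis3L2 mutants 2 of the 14 X copies rose and 1 fell (4.7% and 4.53% of all features). X{}479 had 19 counts there and 2 in w1118, a ratio of 11.3 (2.72 to 99.8), and X{}924 rose by 3.14 ± 0.56 on the log2 scale (edgeR, adjusted p = 0.0167). X{}4031 had 1 count in Dis3L2 mutants and 20 in w1118, a ratio of 0.0593 (0.00143 to 0.371). All 3 calls were lost without either library of the groups compared (edgeR, adjusted p from 0.0547 to 0.232), and those of X{}479 and X{}4031 also without either double mutant library (0.0501 to 0.0680).

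Doc2-element, a relative of Doc held in the table as a single copy, was the family with the largest rise in each mutant. Doc2-element{}650 (2R:5345191-5348400, minus strand, in no annotated gene) had 11.6 and 7.79 CPM in Tailor mutants, 21.8 and 24.5 CPM in Dis3L2 mutants, 11.2 and 13.5 CPM in double mutants and 1.02 and 1.16 CPM in w1118. All 6 mutant libraries lay several-fold above w1118, and the Dis3L2 mutant was highest. The log2 fold changes of the family were 3.14 ± 0.26 in Tailor mutants, 4.40 ± 0.26 in Dis3L2 mutants and 3.47 ± 0.26 in double mutants (edgeR, adjusted p = 0.00237, 0.000417 and 0.000903). These calls were kept without each single library. In the fit of the Tailor mutant and w1118 libraries alone the adjusted p was 0.0999. The interaction was -4.06 ± 0.34 (edgeR, adjusted p = 0.00261): the double mutant was far below the changes of both single mutants added up.

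Doc3-element had 3.40 and 1.69 CPM in Tailor mutants, 5.35 and 3.38 CPM in Dis3L2 mutants, 2.91 and 4.64 CPM in double mutants and 0.826 and 0.844 CPM in w1118. It rose in Dis3L2 mutants (2.37 ± 0.46, edgeR adjusted p = 0.0223) and the double mutant (2.14 ± 0.46, adjusted p = 0.0293). Both calls were lost without either library of the groups compared (adjusted p from 0.0612 to 0.183). Doc3-element{}619 on 2R held 91.9% of the family's counts. The Doc family as a whole was called in no comparison, yet Doc{}1000 (3L:14725654-14728582, within an intron of ome and on its strand) had 1.10 and 2.09 CPM in Tailor mutants, 0.799 and 0.514 CPM in Dis3L2 mutants, 2.28 and 3.95 CPM in double mutants and 0 and 0.0401 CPM in w1118. With 1 count in w1118 the ratios were 75.2 (13.1 to 3008), 28.5 (4.64 to 1171) and 122 (21.4 to 4853). The double mutant call was kept without each single library (edgeR, adjusted p = 0.00518), while those in the Tailor and Dis3L2 mutants were lost without either w1118 library (adjusted p from 0.104 to 0.149), the Tailor mutant call also without either Dis3L2 mutant library or double mutant replicate 2 (0.0518 to 0.0545), and the Dis3L2 mutant call also without either of its own (0.115 and 0.0804).

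The F family was called in no comparison either, and single copies moved. F{}4320 on 2R, within an intron of CG30440, had 2.70 and 0.964 CPM in Tailor mutants, 1.20 and 2.10 CPM in Dis3L2 mutants, 3.31 and 2.60 CPM in double mutants and 0.0485 and 0.0802 CPM in w1118. Against 3 counts in w1118 the ratios were 26.4 (8.71 to 131), 26.5 (8.69 to 132) and 47.7 (15.9 to 234). Its 3 calls were lost without either w1118 library (edgeR, adjusted p from 0.0644 to 0.223), the Tailor mutant call also without either Dis3L2 or either double mutant library (0.0595 to 0.0751) and the Dis3L2 mutant call also without Dis3L2 mutant replicate 2 (0.0721). F{}1572 (4:1256227-1260813, within an intron of Cadps) fell in double mutants by 2.44 ± 0.58 on the log2 scale (edgeR, adjusted p = 0.0389), and its host gene fell by 1.45 (adjusted p = 0.0222); the call of F{}1572 was lost without either Dis3L2 mutant, double mutant or w1118 library (0.0588 to 0.200). Doc{}819, within an intron of Cap-G, rose in Tailor mutants alone among the mutants by this test, with 0.902 and 2.13 CPM there and 0.145 and 0.120 CPM in w1118 (3.47 ± 0.61, adjusted p = 0.0375). That call was lost without every library but Tailor mutant replicate 1, and the mutants were not tested against each other.

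G5{}6196, a piece of 314 bp on 2R, was found in the single mutants and in neither of the other groups. It had 0.751 and 0.201 CPM in Tailor mutants, 1.60 and 2.01 CPM in Dis3L2 mutants and no count in double mutants or w1118. With 71 counts in Dis3L2 mutants it was at least 28.1-fold higher than w1118 (edgeR, adjusted p = 0.0204), a call lost without either library of these groups (adjusted p from 0.0975 to 0.114). G4{}2383 (3L:23683225-23685577), within an intron and on the strand of AGO3, a Piwi-family gene of the piRNA pathway, had 0.200 and 0.0856 CPM in Dis3L2 mutants and 1.45 and 1.44 CPM in w1118 (-3.38 ± 0.68, adjusted p = 0.0243), likewise lost without either library of the groups compared (0.0968 to 0.167).

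The I-like families fell. The I element sum was 5.50 and 8.51 CPM in Tailor mutants, 3.14 and 1.80 CPM in Dis3L2 mutants, 3.17 and 3.20 CPM in double mutants and 12.4 and 11.3 CPM in w1118. All mutant libraries were below w1118, and the Dis3L2 mutant (-2.29 ± 0.33, edgeR adjusted p = 0.00774) and the double mutant (-1.90 ± 0.32, adjusted p = 0.0142) passed the test, while the Tailor mutant did not (-0.76 ± 0.30, adjusted p = 0.307). The Dis3L2 mutant call was lost without Dis3L2 mutant replicate 2 or either w1118 library (adjusted p from 0.0540 to 0.0606), the double mutant call without either double mutant or w1118 library (0.0865 to 0.103). Ivk, a related family, had 1.15 and 1.09 CPM in Tailor mutants, 2.07 and 1.07 CPM in Dis3L2 mutants, 0.704 and 1.03 CPM in double mutants and 5.73 and 4.34 CPM in w1118, again with every mutant library below w1118. It fell in Tailor mutants (-2.16 ± 0.40, adjusted p = 0.0444), the Dis3L2 mutant (-1.70 ± 0.39, adjusted p = 0.0386) and the double mutant (-2.59 ± 0.42, adjusted p = 0.0125). The Tailor mutant call was lost without each of the 8 libraries in turn (0.0522 to 0.304), the Dis3L2 mutant call without each library but those of the Tailor mutant (0.0639 to 0.247), and the double mutant call without either double mutant or w1118 library (0.0658 to 0.1002).

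All 9 tested copies of the I element had negative log2 changes in each mutant. By the edgeR test 7 fell in Dis3L2 mutants and 3 in double mutants, where 4.53% and 4.91% of all features fell. I{}960 (3L:8791331-8796682), 5352 bp long and overlapping an exon of Fhos, had 0.551 and 1.25 CPM in Tailor mutants, 0.200 and 0.0428 CPM in Dis3L2 mutants, 0.225 and 0.208 CPM in double mutants and 1.84 and 1.89 CPM in w1118. Fhos itself had 15.9 and 38.4, 19.2 and 14.9, 15.3 and 15.9, and 34.2 and 35.4 CPM in the same order. It was called in no mutant, and its reads can stand in the values of I{}960. I{}769 on 2R had no count in Dis3L2 mutants and 41 in w1118, at least 11.5-fold lower. I{}1078 (3L:21365893-21371264) had 0.266 and 0.128 CPM in Dis3L2 mutants and 1.41 and 1.20 CPM in w1118. I{}62 (X:5481114-5485000) had 2 counts in each of the Dis3L2 and double mutant groups and 38 in w1118, ratios of 0.0625 (0.00730 to 0.242) and 0.0588 (0.00687 to 0.228). The named Dis3L2 mutant calls of I copies were lost without either Dis3L2 mutant or w1118 library (edgeR, adjusted p from 0.0502 to 0.211), that of I{}62 also without either double mutant library (0.0730 and 0.0767). The double mutant calls of I{}960 and I{}62 were lost without either double mutant or w1118 library (0.132 to 0.226). For Ivk, 3 of 3 tested copies fell in double mutants, where 4.91% of all features fell. Ivk{}206 (X:21458755-21464124) had 0.0642 and 0.312 CPM in double mutants and 2.13 and 1.56 CPM in w1118. Its log2 fold change was -3.67 ± 0.76 (edgeR, adjusted p = 0.0254), a call lost without either library of the groups compared.

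**Figure D5:**
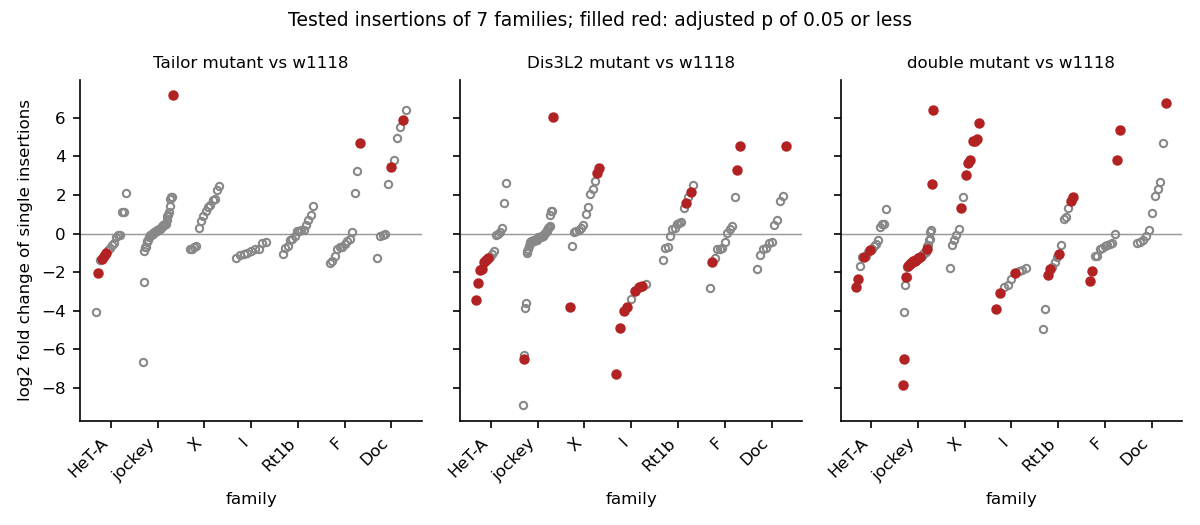
Log2 fold changes of single tested insertions of 7 families (points, in rising order within a family) in the Tailor, Dis3L2 and double mutants against w1118; filled red points have an adjusted p of 0.05 or less. I copies lie below 0 in each panel, X copies reach 5.71 in double mutants and most jockey copies lie between -2 and 0 there. Fitted changes of copies without counts in a group depend on the fit's prior.

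Among R1 and its relatives, the Rt1 families, Rt1b and Rt1c moved. Rt1b, a relative of R1, had 28.6 and 31.5 CPM in Tailor mutants, 51.1 and 43.3 CPM in Dis3L2 mutants, 25.6 and 23.2 CPM in double mutants and 31.0 and 32.1 CPM in w1118. It rose in Dis3L2 mutants by 0.58 ± 0.14 on the log2 scale (edgeR, adjusted p = 0.0478), a call lost without either Dis3L2 mutant, double mutant or w1118 library (adjusted p from 0.0785 to 0.303) and with no filter, a stricter filter, upper quartile scaling or ribosomal RNA left out (0.0501 to 0.0574). Rt1b{}3599 on 2R, within an intron of stw, rose by 2.15 ± 0.25 in Dis3L2 mutants (adjusted p = 0.00364, kept without each single library), with 7.59 and 5.69 CPM there and 1.45 and 1.52 CPM in w1118. Rt1b{}990 (3L:13574910-13580104, within an intron of bru3), the copy with most counts, was at 5.75 and 4.26 CPM in double mutants and 10.1 and 11.2 CPM in w1118 (-1.07 ± 0.24, adjusted p = 0.0323), a call lost without either library of the groups compared (0.0778 to 0.178).

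Rt1c had 3.30 and 3.27 CPM in Tailor mutants, 2.41 and 2.05 CPM in Dis3L2 mutants, 7.14 and 6.71 CPM in double mutants and 2.28 and 2.41 CPM in w1118, and rose in double mutants (1.56 ± 0.22, edgeR adjusted p = 0.00801). The rise came mostly from Rt1c{}192 (X:21033804-21034498, between genes near Ntf-2): 3.69 and 2.29 CPM in double mutants, 0 and 0.0856 CPM in Dis3L2 mutants and no count in Tailor mutants or w1118. With 137 counts in double mutants it was at least 51.0-fold higher than w1118. The family call was lost without this copy (adjusted p = 0.112), without double mutant replicate 1 (0.0562) and without either w1118 library (0.0986 and 0.0804), and the call of the copy without either library of the groups compared (0.0598 to 0.0739). The R1 piece next to it, R1A1{}6004 (X:21034555-21034629, 75 bp), had 30 counts in double mutants and 1 in w1118, a ratio of 33.5 (5.57 to 1367); this call was lost without either Dis3L2 mutant or w1118 library or double mutant replicate 2 (0.0551 to 0.194), and without double mutant replicate 1 the piece had too few counts for a test. Rt1a{}696, on 2R, had 69 counts in double mutants and 3 in w1118, a ratio of 25.7 (8.43 to 128), lost without either library of the groups compared (0.0730 to 0.133).

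R1A1, the element that inserts into 28S ribosomal DNA, had 18.1 and 11.7 CPM in Tailor mutants, 12.2 and 2.61 CPM in Dis3L2 mutants, 16.3 and 24.4 CPM in double mutants and 5.39 and 3.41 CPM in w1118. No change was called (edgeR, 2.20 ± 0.65 in double mutants, adjusted p = 0.0715). The most counted copy, R1A1{}582 on 2R, held 68.2% of the family's counts and was 1 of the 16 copies over 4-fold apart, between the 2 Dis3L2 mutant libraries. The share of counts on ribosomal RNA features was 17.6% and 16.6% in Tailor mutants, 24.6% and 1.43% in Dis3L2 mutants, 4.65% and 10.3% in double mutants and 7.77% and 2.42% in w1118. Its part in the R1A1 values was not tested.

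The baggins family, of the LOA clade, had 13.1 and 11.1 CPM in Tailor mutants, 9.42 and 11.4 CPM in Dis3L2 mutants, 12.5 and 13.5 CPM in double mutants and 5.44 and 6.83 CPM in w1118. It rose in double mutants (1.08 ± 0.19, edgeR adjusted p = 0.0167). The copy with most counts, baggins{}3517 (3R:30422742-30422913), is a piece of 172 bp that overlaps an exon of CG2217 and CG42740, and the family call was lost without it (0.149) and without all copies that overlap an exon (0.384). It was also lost without either double mutant or w1118 library (0.0696 to 0.149). The 15 tested families not yet described, called in no comparison, had log2 fold changes from -1.08 (G6) to 0.53 (BS3) in Tailor mutants, -1.17 (BS) to 0.62 (Juan) in Dis3L2 mutants and -1.61 (G3) to 0.83 (BS3) in double mutants. Closest to the threshold was BS in Dis3L2 mutants, with 18.4 ± 2.31 CPM there and 41.4 ± 1.72 CPM in w1118 (SD, n = 2 each; edgeR adjusted p = 0.0617).

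Over all 215 insertions with enough counts to test, 5 rose and 4 fell in Tailor mutants (1.22% and 0.779% of all 14246 features, 2% together), 11 rose and 18 fell in Dis3L2 mutants (4.7% and 4.53%, 9.22% together) and 23 rose and 32 fell in double mutants (6.66% and 4.91%, 11.6% together). The median log2 change was 0.03, -0.14 and -0.53, beside 0.02, 0.00 and -0.06 for all features. Of the 32 falls in double mutants 15 were jockey copies, and of the 18 in Dis3L2 mutants 7 were HeT-A and 7 were I copies. For the 542 other transposon insertions the counts higher and lower were 13 and 2, 27 and 30, and 36 and 34. Without w1118 replicates 1 and 2 the number of members called was 1 and 1 in Tailor mutants, 8 and 8 in Dis3L2 mutants and 5 and 9 in double mutants. Without the libraries of the mutant itself it was 14 and 19 for the Tailor mutant, 10 and 8 for the Dis3L2 mutant and 12 and 12 for the double mutant. In Tailor mutants it was also 3 or 4 when a Dis3L2 or double mutant library was left out. With w1118 replicate 2 and Tailor mutant replicate 1 both left out it was 4 in Tailor mutants.

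Calls were found in and out of genes, with few among copies that overlap an exon. Of 109 tested insertions in no annotated gene, 13 rose and 20 fell in double mutants. Of 82 within introns 9 rose and 11 fell, and of 23 that overlap an exon 1 rose and 1 fell. Over all features 6.66% rose and 4.91% fell in double mutants. Among hosts of insertions called, none of 3 was called in Tailor mutants, none of 11 in Dis3L2 mutants and 5 of 21 in double mutants by edgeR, where 2%, 9.22% and 11.6% of all features were called. Of these 5, Cadps with F{}1572 moved the same way as its insertion and the other 4 the opposite way. Called insertions outside genes were each paired with their nearest gene, so that a gene can recur. The gene was called in none of 6 pairs in Tailor mutants, 1 of 14 in Dis3L2 mutants and 3 of 28 in double mutants. Each moved in the direction of the insertion. The 3 pairs in double mutants all hold the same gene, Cadps, nearest to HeT-A{}6276, HeT-A{}6268 and TART-C{}6275 and also the host of F{}1572. The gene fz fell by 0.77 on the log2 scale in double mutants (edgeR, adjusted p = 0.0290), where X{}996 on its opposite strand rose by 4.80. The acetylcholine receptor gene nAChRalpha4 fell by 1.33 (adjusted p = 0.0133), where X{}1606 rose by 1.33. The calls of fz, nAChRalpha4, Cadps and X{}1606 were lost without either w1118 library and without at least 1 double mutant library (edgeR, adjusted p from 0.0521 to 0.218), those of fz and X{}1606 also without either Dis3L2 mutant library (0.0518 to 0.0654). Strand handling of the counts was not given in the sources used here, so reads of a gene and of an insertion on its other strand cannot be told apart.

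Genes of the piRNA pathway, which silences these elements in the germline, passed the test about as often as other features. Of 41 tested, none rose and 1 fell in Tailor mutants, 1 rose and 3 fell in Dis3L2 mutants and 3 rose and 2 fell in double mutants, shares near the 1.92%, 9.3% and 11.3% of all features called in either direction. The medians of their log2 changes were -0.07, -0.17 and -0.09, beside 0.02, 0.00 and -0.06 for all features. Deadlock (del), part of the Rhino complex at dual-strand piRNA clusters, had 41.2 and 42.7 CPM in Tailor mutants, 27.5 and 25.9 CPM in Dis3L2 mutants, 44.9 and 40.9 CPM in double mutants and 60.3 and 68.5 CPM in w1118. It fell in Dis3L2 mutants (-1.27 ± 0.13, edgeR adjusted p = 0.00259, kept without each single library) and in double mutants (-0.59 ± 0.13, adjusted p = 0.0298), with an interaction of 1.30 ± 0.18 (adjusted p = 0.0165). The double mutant and interaction calls were lost without either Dis3L2 mutant, double mutant or w1118 library (0.0530 to 0.222).

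Armitage (armi), a helicase of piRNA production, had 32.5 and 35.8 CPM in Tailor mutants, 40.6 and 39.9 CPM in Dis3L2 mutants, 40.6 and 45.1 CPM in double mutants and 59.6 and 54.8 CPM in w1118, and fell in Tailor mutants (-0.74 ± 0.13, edgeR adjusted p = 0.0351) and the Dis3L2 mutant (-0.51 ± 0.13, adjusted p = 0.04998). The helicase gene spn-E rose in Dis3L2 mutants (1.03 ± 0.18, adjusted p = 0.0159), with 59.7 and 55.5 CPM there and 28.47 and 28.003 CPM in w1118, and thoc7, of the THO complex, fell (-1.14 ± 0.16, adjusted p = 0.00666). In double mutants SoYb (1.22 ± 0.26), Su(var)2-10 (0.61 ± 0.12) and mino (0.55 ± 0.14) rose and csul (-0.87 ± 0.22) fell (adjusted p from 0.0209 to 0.0438). All of these calls were lost without w1118 replicate 1 or 2 and, in turn, without at least 1 mutant library (adjusted p from 0.0503 to 0.340). Of 15 telomere capping genes tested, mre11 rose in Dis3L2 mutants (1.26 ± 0.23, edgeR adjusted p = 0.0186) and cav, which codes for the capping protein HOAP, rose in double mutants (0.63 ± 0.15, adjusted p = 0.0434); both were lost without either w1118 library and without either library of the mutant (0.0719 to 0.230), and cav also without either Dis3L2 mutant library (0.0555 and 0.0617).

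The interaction passed the test for 2 of 29 families, HeT-A above 0 and Doc2-element below 0 (1.73% and 1.82% of all features, 3.55% together), and for 16 of 215 insertions, 5 above 0 and 11 below (1.99% and 2.08%, 4.08% together). The medians were 0.05 for families and -0.20 for insertions, beside -0.06 for all features in both tables. The number of insertions was 35 without Tailor mutant replicate 1 and 5 without either w1118 or either Dis3L2 mutant library, and 4 without either double mutant library; that of families was 5 without Tailor mutant replicate 1. Of the 11 below 0, Doc2-element{}650 and jockey{}171 stood above w1118 in double mutants, G5{}6196 had no count in either group, and the double mutant libraries of jockey{}981, jockey{}1461, jockey{}60, jockey{}1452, Rt1b{}334, Rt1b{}1356, Rt1b{}1288 and F{}656 were below both w1118 libraries. F{}656 (2R), for one, had 0.301 and 0.844 CPM in Tailor mutants, 1.27 and 1.41 CPM in Dis3L2 mutants, 0.0642 and 0.104 CPM in double mutants and 0.145 and 0.120 CPM in w1118.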

How the data were processed

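Total RNA of testes was sequenced in 8 libraries, 2 per group. The deposited values are raw counts per feature, annotated transposon insertions among them; per the submitters' processing notes the authors used Trimmomatic 0.36, HISAT2 and build dm6. The counting tool, the annotation, the strand setting and the treatment of reads that match several places were not given in the sources used here.

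Insertions were chosen by family name. The members and gene lists were chosen with earlier results of these data known. Counts were tested as deposited (14246 features) and with each transposon family's insertions summed to 1 row (13605 features). The test was edgeR 4.0.16's quasi-likelihood test (R 4.3.3, limma 3.58.1) over all 8 libraries by group, with TMM scaling, filterByExpr at a minimum count of 10 and Benjamini-Hochberg adjustment over all features; a call is an adjusted p of 0.05 or less. The script was tested on simulated data. CPM use TMM-scaled library sizes, except that libraries of a group were compared over total counts, without TMM. Where a group had no count, bounds put 3 counts over the group; with 1 to 3 counts, ratios carry exact conditional 95% intervals. Both cover counting error only, and reads without molecular identifiers are not independent molecules. Positions are those of the Ensembl BDGP6 annotation, in dm6 coordinates, counted from 1. No insertion sequence was used here.

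The text names families called in any comparison, the telomeric families and R1, the copy with most counts of families described, and up to 10 rises and 10 falls per comparison among called insertions whose libraries do not overlap; of lists, up to 3 genes with the lowest p. Switching jockey copies were chosen after their values were seen. P-values measure the spread between 2 dissections per group. Alternatives were other scalings, filters, DESeq2 1.42.0, fewer groups, a replicate block, ribosomal RNA left out, and libraries or insertions left out.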

Additional observations from a re-analysis of the deposited data

Results flagged for a closer look

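For the items here edgeR's test of the interaction passed, that is, double mutants departed from the summed log2 changes of both single mutants. Whether the strains carry the same insertions was not given in the sources used here, so a difference in insertions and a difference in RNA cannot be told apart. For the HeT-A family it was 1.94, and for its copies it was 3.29 (HeT-A{}6262), 2.72 (HeT-A{}6255), 2.52 (HeT-A{}4795), 2.35 (HeT-A{}6278) and 1.84 (HeT-A{}6256). For the Doc2-element family and its copy Doc2-element{}650 it was -4.06 in each of the 2 tables.

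Copies with no or few counts in double mutants had values that depend on the fit's prior count and are no bound. These are G5{}6196 (-14.59; no count in double mutants or w1118), jockey{}981 (-8.50; 3 counts in double mutants) and Rt1b{}1356 (-7.79), which had 16 counts in Tailor mutants, 24 in Dis3L2 mutants, 0 in double mutants and 8 in w1118. For jockey{}171, at 0 in w1118, the value was -6.78, and for F{}656 it was -6.14.

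The other copies had counts in every group. For jockey{}1461 the interaction was -3.34, with 5.81 and 9.88 CPM in Tailor mutants, 2.33 and 2.40 CPM in Dis3L2 mutants, 0.963 and 0.727 CPM in double mutants and 2.76 and 1.44 CPM in w1118. For jockey{}60 it was -2.88, with 0.952 and 0.763, 0.866 and 0.942, 0.289 and 0.208, and 0.339 and 0.441 CPM in the same order. For jockey{}1452 it was -2.64, with 1.60 and 2.21, 2.73 and 3.34, 0.770 and 0.519, and 1.503 and 1.24 CPM. For Rt1b{}334 it was -2.63, with 1.95 and 2.01, 2.20 and 1.97, 0.417 and 0.312, and 1.84 and 1.60 CPM. For Rt1b{}1288 it was -1.98, with 5.81 and 6.55, 9.19 and 7.10, 2.02 and 1.66, and 6.55 and 7.02 CPM. In all 5 the double mutant libraries were the lowest.

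The calls of the HeT-A and Doc2-element families and of HeT-A{}6262, HeT-A{}4795, HeT-A{}6278 and Doc2-element{}650 were kept without each single library. That of jockey{}981 was lost without either double mutant library (edgeR, adjusted p = 0.0609 and 0.0520). The other 11 were lost without either Dis3L2 mutant, double mutant or w1118 library (adjusted p from 0.0590 to 0.217), that of jockey{}60 also without either Tailor mutant library (0.0541 and 0.0572) and those of Rt1b{}1356 and jockey{}171 without Tailor mutant replicate 2 (0.0738 and 0.0520).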

How the results depend on the processing

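No named value changed direction under the alternatives run. For the Tailor mutant, 0 families and 0 insertions were called when only the 4 libraries compared were fitted by edgeR (9 and 47 at an unadjusted p under 0.05), while DESeq2 called 5 families and 17 insertions, no filter gave 18 insertions, and leaving out both w1118 replicate 2 and Tailor mutant replicate 1 gave 1 family and 4 insertions. Without the copy with most counts of each family, 6 families were called in double mutants and 1 for the interaction. Doc2-element and TART-C, each a single copy, and Doc3-element were not tested in that fit, so it could not keep their calls. Rt1c and baggins were tested and lost their double mutant calls (edgeR, adjusted p = 0.112 and 0.149). At a minimum count of 50, which tests fewer copies, 12 insertions were called in Dis3L2 mutants and 29 in double mutants, and in the fit of the Dis3L2 mutant and w1118 alone 46. With 1 library left out, families called ranged from 1 to 5 in Tailor mutants, 2 to 9 in Dis3L2 mutants, 1 to 14 in double mutants and 2 to 5 for the interaction, and insertions from 1 to 19, 8 to 43, 5 to 81 and 4 to 35.

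Deviations of same-numbered libraries correlated with mixed signs between groups, from -0.31 (Tailor and Dis3L2 mutants) to 0.32 (w1118 and Tailor mutants). The numbers were therefore not taken to pair the libraries. With the replicate block, families called were 2, 4, 8 and 2 and insertions 4, 22, 32 and 7 in the Tailor, Dis3L2 and double mutants and for the interaction. The block lost the calls of HeT-A and TART-C in double mutants and of Rt1b in Dis3L2 mutants. It also lost those of Ivk in Tailor and in Dis3L2 mutants (edgeR, adjusted p of these calls from 0.0614 to 0.101). Elsewhere the cause of lost calls was not tested. Of 79 insertion calls followed, 16 kept their call without w1118 replicate 1 and 16 without w1118 replicate 2, against 79 with relative log expression scaling. Single copies with under 100 counts are limited by depth.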

Other observations

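Rises of non-LTR insertions were frequent in a stretch of chromosome 2R from 5 to 6 Mb, chosen after its values were seen and therefore given without a test. Of 22 tested insertions there, 7 (31.8%) rose and none fell in Dis3L2 mutants by edgeR's test, 6 (27.3%) rose and none fell in double mutants, and 2 (9.09%) rose and none fell in Tailor mutants. Among the 193 insertions elsewhere the shares that rose were 2.07%, 8.81% and 1.55%. Of 44 genes in the stretch, 2 (4.55%) rose in Dis3L2 mutants, 4 (9.09%) in double mutants and 1 (2.27%) in Tailor mutants, beside 4.35%, 6.49% and 1.35% of the 2664 genes of 2R. Doc2-element{}650, Doc3-element{}619, F{}656, F{}4320, Rt1b{}3599, Rt1a{}696 and G5{}6196 lie in it. Median log2 changes of the 22 insertions were 0.40 in Tailor mutants, 0.17 in Dis3L2 mutants and 0.41 in double mutants, beside -0.01, -0.15 and -0.60 elsewhere.

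The BS copy BS{}1038, like the jockey copies described, differed between libraries of a group: 0.401 and 0.121 CPM in Tailor mutants, 0.0666 and 0.128 CPM in Dis3L2 mutants, 1.61 and 0.104 CPM in double mutants and 0.242 and 8.90 CPM in w1118.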
